A study of Mus musculus with 6 samples.

Results

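The proteasome genes of mouse blood stem cells were compared between animals given granulocyte colony-stimulating factor (G-CSF) and animals given PBS. Members were the genes whose symbol consists of Psma, Psmb, Psmc, Psmd, Psme or Psmg and a number, without the immunoproteasome genes Psmb8, Psmb9 and Psmb10. There were 44 such genes, and all 44 were among the 14994 genes tested. Membership followed from the symbol, and the set was chosen with earlier results of these data known. Psmc3ip and Psme3ip1 share the stem of a symbol but do not encode subunits and were not counted. Their differences were -0.14 and 0.42 on the log2 scale.

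The RNA came from KSL SLAM cells, a sorted population in which blood stem cells are enriched, gated as negative for lineage markers, CD48 and CD41 and positive for c-Kit, Sca-1 and CD150. Treated mice received G-CSF at 125 mcg/kg subcutaneously in 2 injections per day, and both groups were treated for 7 days. Each group had 3 arrays, and each array held RNA of an independent pool of 5 to 10 mice, amplified before hybridization to the MoGene 1.0 ST array. Pooling leaves the spread between single mice unmeasured, and the labels give no strain, age or genotype.

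The proteasome breaks down proteins that carry ubiquitin chains. Its core particle is a stack of outer alpha rings, which gate entry, and inner beta rings, which hold the protease sites. A regulatory particle caps the core, with a base of ATPases that unfold the substrate and a lid that removes ubiquitin. Dedicated chaperones assemble both particles, and alternative activators can replace the cap. In most cell types the subunit genes are regarded as jointly regulated, with the transcription factor Nfe2l1 raising them when proteasome activity drops. Blood stem cells are known for a low rate of protein synthesis and for sensitivity to protein quality control.

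Promoters of some members hold elements through which such joint regulation is discussed, and 3 are given as examples. Psmb5 and Psmb6 encode protease subunits and hold a match to the antioxidant response element, the motif that Nfe2l1 and Nfe2l2 recognise. Psmc1 is the member whose PBS and G-CSF values did not overlap, and it holds the core of the ETS factor motif. Sequences are from RefSeq (GRCm38.p6) and span the 250 bases before the annotated start, 5′ to 3′ on the gene's strand. They lie at chr14:54617996-54618245 (minus strand) for Psmb5, chr11:70525107-70525356 (plus strand) for Psmb6 and chr12:100109952-100110201 (plus strand) for Psmc1. Capitals mark matches to the antioxidant response element TGACNNNGC or to the ETS core CCGGAAG, on either strand, and no matches overlapped in these 3 windows.
Psmb5: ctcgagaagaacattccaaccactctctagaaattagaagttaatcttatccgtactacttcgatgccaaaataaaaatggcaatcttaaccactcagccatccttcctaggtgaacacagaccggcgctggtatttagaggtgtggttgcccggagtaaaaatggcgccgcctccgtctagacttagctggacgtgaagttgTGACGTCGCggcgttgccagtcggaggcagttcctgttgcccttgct
Psmb6: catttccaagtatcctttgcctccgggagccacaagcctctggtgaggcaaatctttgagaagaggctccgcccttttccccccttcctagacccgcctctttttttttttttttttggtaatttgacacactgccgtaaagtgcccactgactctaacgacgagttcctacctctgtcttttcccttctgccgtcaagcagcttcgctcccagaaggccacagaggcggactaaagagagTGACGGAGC
Psmc1: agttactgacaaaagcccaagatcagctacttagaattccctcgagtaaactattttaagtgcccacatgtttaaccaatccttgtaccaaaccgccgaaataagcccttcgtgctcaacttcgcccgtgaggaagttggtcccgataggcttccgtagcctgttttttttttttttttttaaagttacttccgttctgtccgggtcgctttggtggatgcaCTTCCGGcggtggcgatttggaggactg
The match in Psmb5 began 47 bases before the start and that in Psmb6 began 9 bases before it. In Psmc1 the ETS core lay on the opposite strand, with its first base on the printed strand 28 bases before the start. Windows were at hand for 36 of the 44 members. The antioxidant response element occurred in 5 of these 36 genes (13.9%), namely Psmb5, Psmb6, Psmc6, Psmd9 and Psmd12, against 13.35% of the 11870 tested genes with a window. The ETS core occurred in 12 of 36 (33.3%) against 13.01% of tested genes. A CCAAT box, searched as CCAAT on both strands, occurred in 13 (36.1%) against 38.6%. These matches describe letters in the windows, and binding was not measured.

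As a check of the gate, Kit and Slamf1 (CD150) lay above the filter limit of 5.15 on the log2 scale in all 6 arrays. Kit was at 10.01 ± 0.23 with PBS and 9.04 ± 0.36 with G-CSF (SD, n = 3), and its groups did not overlap (unadjusted p = 0.00336, limma adjusted p = 0.374). Itga2b (CD41), against which the cells were gated, was also above the limit in all 6 arrays, at 6.37 ± 0.14 with PBS and 6.21 ± 0.03 with G-CSF. Cd48, likewise gated against, was at 5.46 ± 0.77 and 5.35 ± 0.65. Ly6a (Sca-1) was not analysed here. Summed levels of several other marker lists did not overlap between the groups. The summed intensity of 24 measured mature neutrophil markers was 10871 to 19037 in PBS arrays and 33936 to 44735 in G-CSF arrays, with 23 of 24 higher on average and 1 of 24 (Trem1) below the limit. For 16 granulocyte-monocyte progenitor markers the sums were 1248 to 1713 and 3135 to 7085 (14 of 16 higher, 0 below the limit), and for 15 mitosis markers 1101 to 1531 and 1980 to 2144 (14 of 15 higher, 0 below the limit). For 10 monocyte and macrophage markers they were 1111 to 1879 and 2302 to 2980, with 9 of 10 higher. For 18 stem cell markers the sums overlapped, at 9081 to 10129 and 9048 to 11662, while 15 of 18 were lower on average (median difference -0.27). In 5 of the 18 all G-CSF values were under the PBS values, and in 1 all were over them. Among all genes tested these shares were 5.05% and 5.77%. For 10 megakaryocyte markers the sums were 827 to 1043 and 604 to 644, with 8 lower and 2 higher on average (median difference -0.35). In 3 of these 10 all G-CSF values were under the PBS values, and in 1 all were over them. For 8 erythroid markers the sums were 1131 to 1683 and 896 to 1079, with 6 lower and 2 higher. The erythroid median difference was only -0.08, and in 1 of the 8 all G-CSF values were under the PBS values. Adgre1 was the 1 monocyte and macrophage marker below the limit, Clec1b the 1 megakaryocyte marker and Klf1 the 1 erythroid marker. Sums of 9 B cell markers and of 9 T and NK cell markers overlapped between the groups, and 4 of each list were below the limit (Blnk, Cd79a, Ebf1 and Ms4a1, and Cd3d, Cd3g, Klrb1c and Ncr1). The part of these cell types in the proteasome values was not tested. In such pools a lower value can mean fewer cells of a type or less RNA per cell, and these cannot be told apart. The median intensity per array was 56.2 to 61.7, and Spearman's rho between arrays was 0.836 to 0.895.

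No proteasome gene passed the test between G-CSF and PBS. By limma with Benjamini-Hochberg adjustment over all genes, 0 of 44 members had an adjusted p under 0.05 (smallest 0.689, Psmd5), where 0.0267% of all genes did. At an unadjusted p under 0.05 there were 2 lower members (4.55%), Psmd5 and Psmc1, and 0 higher ones, against 3.3% of all genes lower, 2.73% higher and 6.04% in either direction. In 1 member, Psmc1, the G-CSF values were all under the PBS values, and in 0 members all over them. That is 2.27% of members, against 5.05% of all genes separated with lower values, 5.77% with higher and 10.8% in either direction. These shares were near or under those of the whole array.

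The direction of the differences leaned to lower values with G-CSF. Differences (G-CSF minus PBS, log2 intensity) were negative in 32 of the 44 members (72.7%), against 49.7% of all genes. Their median was -0.14, against 0.00152 over all genes tested, and they ran from -0.91 (Psmd5) to 0.59 (Psme2). The lean depended on single arrays. Without G-CSF replicate 1, 20 of 44 differences were negative and the median was 0.07. Without PBS replicate 3, 24 were negative and the median was -0.04. Without PBS replicate 1 or G-CSF replicate 2, 36 were negative, with medians of -0.24 in both cases.

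**Figure D1:**
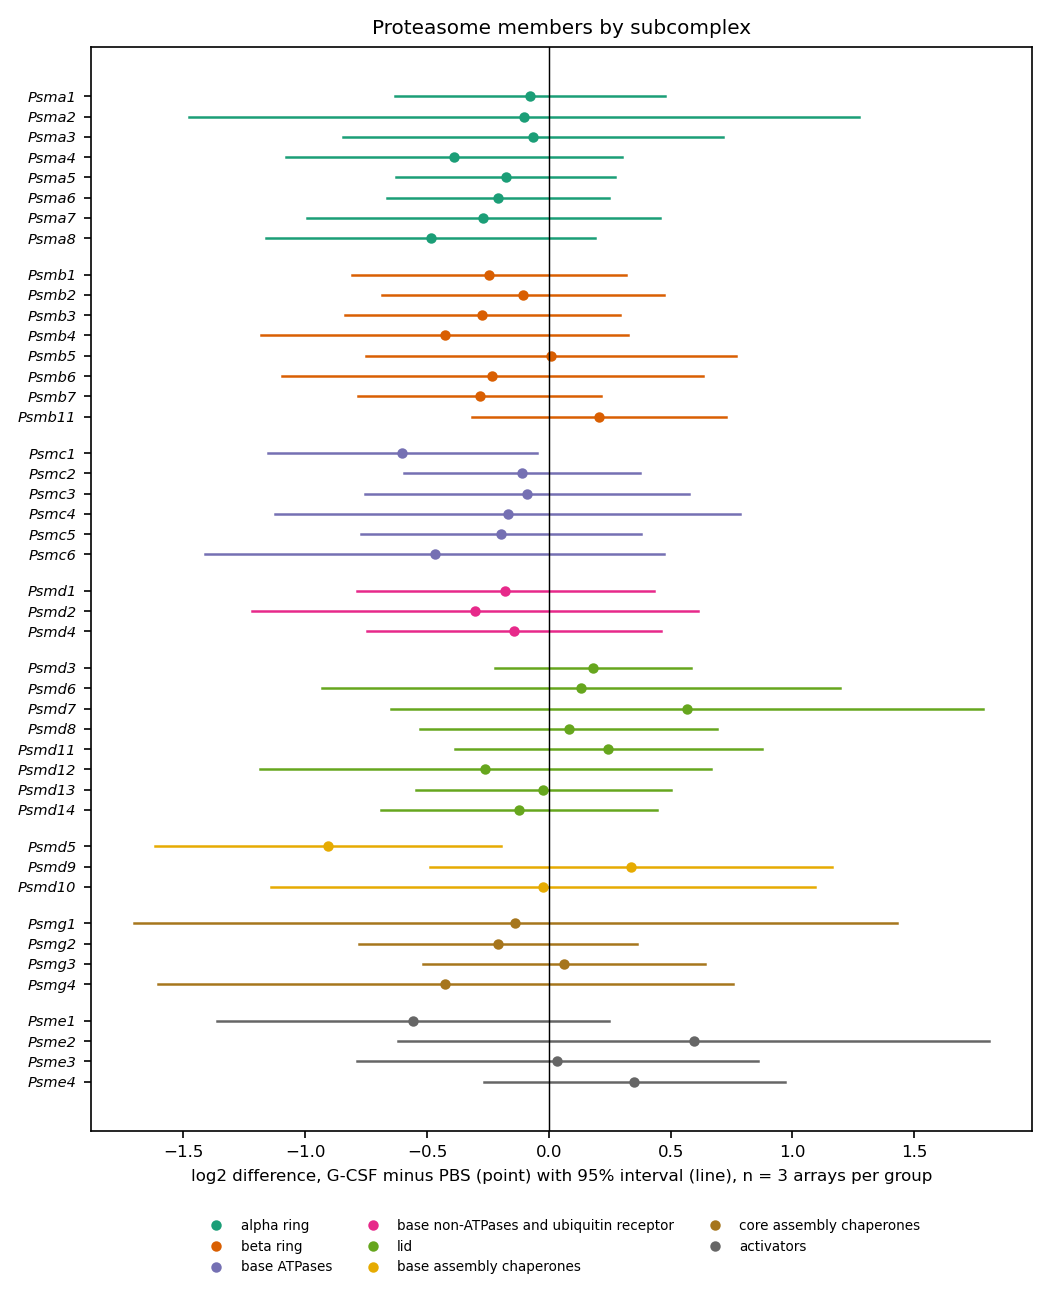
Log2 difference (G-CSF minus PBS) of each of the 44 members on the horizontal axis, with points for estimates and lines for limma's 95% intervals, coloured by subcomplex. All points of the alpha ring, the ATPases and the base non-ATPases lie below 0, and only the lines of Psmc1 and Psmd5 do not cross 0.

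The measurements left room for moderate changes in either direction. The 95% interval around a member's difference reached 0.40 to 1.57 to each side (median 0.67, log2). It excluded a difference of -1 or lower in 29 members and of 1 or higher in 37. Replicates of a group also differed more in these genes than in most, though genes of like level were not compared. Members were brighter, with means per array of 7.77 to 8.47 (log2) against 6.57 to 6.68 over all genes tested. The residual SD was 0.41 in the median member and 0.26 in the median gene tested, and 40 of 44 members exceeded that gene (90.9%). A p that missed the threshold therefore does not show that a gene was alike in both groups.

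The spread between replicates was shared by many members. G-CSF replicate 1 gave the lowest of the 6 values in 21 of 44 members (47.7%), against 20.1% of all genes. PBS replicate 3 gave the highest in 15 of 44 (34.1%), against 18.2% of all genes, and G-CSF replicate 2 in 11. The median deviation of members from their own mean was -0.41 in G-CSF replicate 1, -0.13 in PBS replicate 1 and 0.01 in G-CSF replicate 3. It was 0.03 in PBS replicate 2, 0.18 in G-CSF replicate 2 and 0.28 in PBS replicate 3. Both groups thus held an array with high and an array with low proteasome values. The SD of log2 intensity over all probesets was smallest in G-CSF replicate 1 (1.79) and largest in G-CSF replicate 2 and PBS replicate 3 (1.95 each). After quantile normalization again, which makes these SDs equal, G-CSF replicate 1 was the lowest in 21 members (47.7%, against 24.0% of all genes) and PBS replicate 3 the highest in 12.

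**Figure D2:**
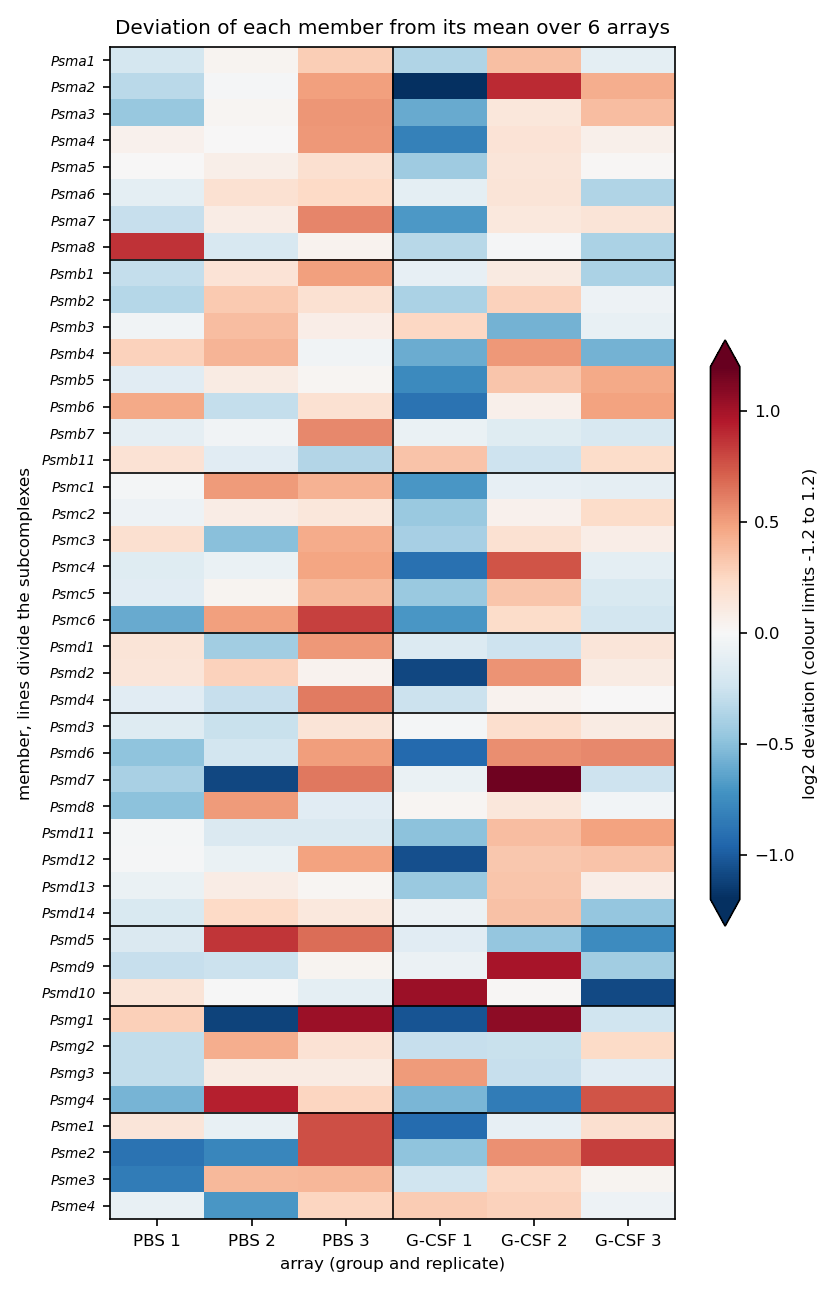
Deviation of each member (rows, grouped by subcomplex) from its own mean over 6 arrays, in log2 units, for the 3 PBS and 3 G-CSF arrays (columns). Blue is below and red above the mean, and the column of G-CSF replicate 1 is the lowest in 21 of 44 rows.

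The alpha ring had negative differences in 8 of 8 members, with a median of -0.19. Psma4 read 8.84, 8.80 and 9.31 in PBS replicates 1 to 3 and 7.98, 8.96 and 8.85 in G-CSF replicates 1 to 3. Only G-CSF replicate 1 lay below the PBS range, and the difference was -0.39 (SE 0.29, limma adjusted p = 0.956). Psma8, which encodes an alternative alpha subunit known from testis, read 7.03, 5.97 and 6.20 with PBS and 5.83, 6.14 and 5.77 with G-CSF. The high value was PBS replicate 1, and the groups overlapped (-0.49, SE 0.29, adjusted p = 0.932). Psma7 (-0.27), Psma6 (-0.21), Psma5 (-0.18), Psma2 (-0.10), Psma1 (-0.08) and Psma3 (-0.06) followed. Psma2 had the widest spread of the ring, with 6.94 in G-CSF replicate 1 and 9.32 in G-CSF replicate 2. Psma3 had 3 probesets, which gave -0.06 each, and the second probeset of Psma5 gave -0.02. Without G-CSF replicate 1, 4 of the 8 alpha differences were negative and the median was 0.00067.

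In the beta ring 6 of 8 members had negative differences, with a median of -0.24. The protease sites lie in Psmb5, Psmb6 and Psmb7, and their differences were 0.01 (SE 0.32), -0.23 (SE 0.37) and -0.28 (SE 0.21). Psmb7 read 8.27, 8.34 and 8.95 with PBS and 8.30, 8.23 and 8.18 with G-CSF. PBS replicate 3 stood above the other 5 arrays, which lay within a narrow band (adjusted p = 0.954). Psmb4, a non-catalytic subunit, read 10.42, 10.55 and 10.10 with PBS and 9.55, 10.66 and 9.58 with G-CSF. G-CSF replicates 1 and 3 were low and replicate 2 was the highest of all 6 (-0.43, SE 0.32, adjusted p = 0.955). The non-catalytic Psmb3, Psmb1 and Psmb2 differed by -0.27, -0.25 and -0.11. Both probesets of Psmb3 gave similar values (-0.27 and -0.26). Psmb11, the protease subunit known from thymic epithelium, differed by 0.21 (SE 0.22), with means of 5.75 and 5.95. Without PBS replicate 3 the ring's median was -0.06, and without G-CSF replicate 1 it was -0.09. With all 6 arrays but without Psma8 and Psmb11, 13 of 14 alpha and beta ring members had negative differences (median -0.22).

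The immunoproteasome genes, which replace the catalytic beta subunits after interferon signalling, differed by -0.48 (Psmb9), -0.38 (Psmb8) and -0.23 (Psmb10). The groups overlapped in all 3 (smallest adjusted p = 0.932).

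All 6 base ATPases had negative differences, with a median of -0.18. Psmc1 read 8.98, 9.52 and 9.42 with PBS and 8.31, 8.91 and 8.89 with G-CSF. Each G-CSF value was under each PBS value, the nearest being G-CSF replicate 2 and PBS replicate 1. The means were 9.31 ± 0.29 and 8.70 ± 0.34 (SD, n = 3), a difference of -0.60 (SE 0.23, 1.52-fold higher with PBS, unadjusted p = 0.0363, limma adjusted p = 0.768). A second probeset of Psmc1 read 8.21, 9.19 and 9.62 with PBS and 7.81, 9.63 and 9.22 with G-CSF. There the groups overlapped and the difference was -0.12, and the mean of both probesets gave -0.36 (adjusted p = 0.965). Psmc6 read 7.89, 8.99 and 9.32 with PBS and 7.79, 8.72 and 8.28 with G-CSF. The low arrays were replicate 1 of both groups (-0.47, SE 0.40, adjusted p = 0.964). The difference of Psmc6 was -0.17 without PBS replicate 3 and -0.89 without PBS replicate 1. Psmc5 (-0.20), Psmc4 (-0.17), Psmc2 (-0.11) and Psmc3 (-0.09) differed by less. Without G-CSF replicate 1 the ATPases split into 3 negative and 3 positive differences, with a median of 0.03.

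The base also holds the scaffold subunits Psmd1 and Psmd2, and the ubiquitin receptor Psmd4 is counted with them here. All 3 had negative differences, with a median of -0.18. Psmd2 read 7.82, 7.96 and 7.72 with PBS and 6.59, 8.22 and 7.78 with G-CSF. The PBS values lay close together, and G-CSF held both the lowest and the highest array (-0.30, SE 0.39, adjusted p = 0.966). Without G-CSF replicate 1 the difference of Psmd2 was 0.17, and its second probeset gave 0.04. Psmd1 and Psmd4 differed by -0.18 and -0.14. Without PBS replicate 3 the median of these 3 genes was 0.04.

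The lid stood on the other side of 0, with positive differences in 5 of 8 members and a median of 0.11. Psmd14, the deubiquitinase that cuts ubiquitin chains from the substrate, differed by -0.12 (SE 0.24). Psmd7, its partner without enzyme activity, read 7.94, 7.24 and 8.97 with PBS and 8.26, 9.50 and 8.09 with G-CSF. The values were scattered in both groups, with means of 8.05 ± 0.87 and 8.62 ± 0.77 (0.57, SE 0.52, adjusted p = 0.966). The difference of Psmd7 was 0.12 without G-CSF replicate 2 and 1.02 without PBS replicate 3. The scaffold subunit Psmd3 read 6.38, 6.28 and 6.69 with PBS and 6.52, 6.74 and 6.64 with G-CSF. The G-CSF values lay close together near the top of the PBS range (0.18, SE 0.17, adjusted p = 0.966). Among the other structural lid subunits, Psmd11 (0.24), Psmd6 (0.13) and Psmd8 (0.08) had positive and Psmd12 (-0.26) and Psmd13 (-0.02) negative differences. In Psmd11 the PBS values were 7.98 to 8.13, G-CSF replicate 1 was lower (7.66) and replicates 2 and 3 higher (8.52 and 8.64). Leaving out PBS replicate 1 gave a lid median of -0.07, and leaving out G-CSF replicate 2 gave -0.04. Without G-CSF replicate 1 the lid median was 0.22, with 7 of 8 differences positive. Whether the lid differed from the core was not tested.

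**Figure D3:**
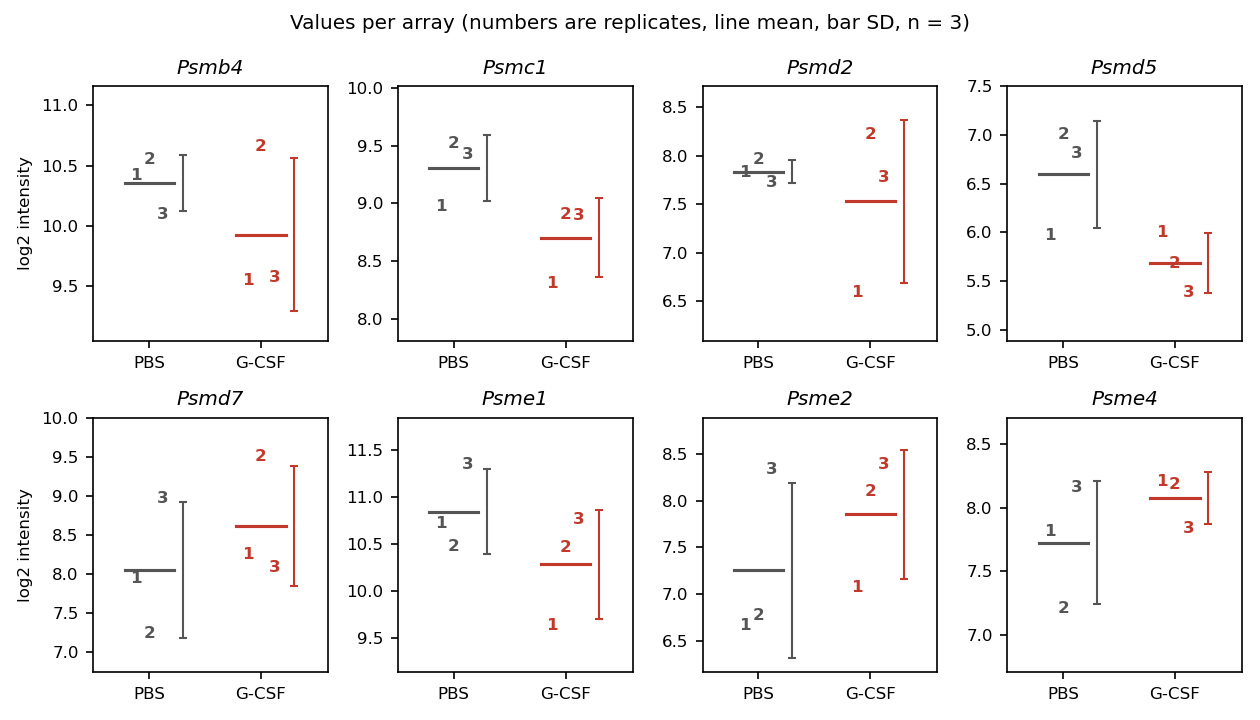
Log2 intensity (vertical axes, each with its own range) of 8 members in PBS (grey) and G-CSF (red) arrays, with replicate numbers as points, lines for means and bars for SD (n = 3). Psmc1 is the member in which the groups do not overlap, and in Psmd5 PBS replicate 1 (5.97) lies among the G-CSF values.

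The base assembly chaperones held the largest negative difference. Psmd5, which holds ATPase subunits until the base is built, read 5.97, 7.00 and 6.81 with PBS and 6.0, 5.68 and 5.38 with G-CSF. PBS replicate 1 lay among the G-CSF values, and PBS replicates 2 and 3 lay above. The G-CSF values were dim, under the medians of genes tested in those arrays (6.35 to 6.36), and the lowest was near the filter limit of 5.15. The difference was -0.91 (SE 0.30, 95% interval -1.62 to -0.20, 1.87-fold higher with PBS, unadjusted p = 0.0192). It did not pass after adjustment (limma adjusted p = 0.689, and 0.323 to 0.969 over the alternatives tried), and it ran from -1.22 to -0.70 with each array left out. The chaperone Psmd9 differed by 0.34 (SE 0.35). For Psmd10, also called gankyrin, the difference was -0.02, with SDs of 0.13 with PBS and 1.05 with G-CSF. The median of these 3 genes was -0.02, and it went from -0.54 without G-CSF replicate 1 to 0.51 without G-CSF replicate 3.

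Of the 4 core assembly chaperones, 3 had negative differences (median -0.17). Psmg2, the partner of Psmg1 in building the alpha ring, read 6.52, 7.24 and 6.98 with PBS and 6.53, 6.54 and 7.04 with G-CSF. PBS replicate 1 was the lowest array and PBS replicate 2 the highest (-0.21, SE 0.24, adjusted p = 0.966). Psmg4 read 6.36, 7.85 and 7.18 with PBS and 6.36, 6.08 and 7.67 with G-CSF. Its replicates differed by more than the groups did (-0.42, SE 0.50, adjusted p = 0.966). Psmg1 differed by -0.14 with an SD of over 1 in both groups (1.09 and 1.06), and Psmg3, the partner of Psmg4, by 0.06.

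The activators showed the largest positive and one of the larger negative differences. Psme1 and Psme2 encode the chains of a mixed ring that interferon is known to induce. Psme1 read 10.71, 10.47 and 11.34 with PBS and 9.64, 10.46 and 10.76 with G-CSF. All G-CSF values were below PBS replicate 3, and the other arrays overlapped (-0.56, SE 0.34, adjusted p = 0.934). Psme2 read 6.67, 6.77 and 8.33 with PBS and 7.07, 8.10 and 8.39 with G-CSF. PBS replicate 3 lay with the G-CSF arrays (0.59, SE 0.52, adjusted p = 0.966), and without it the difference was 1.13 (adjusted p = 0.895). Without PBS replicate 1, PBS replicate 2 or G-CSF replicate 3 it was 0.30, 0.35 or 0.33. A probeset assigned to both Psme2 and its near copy Psme2b gave 0.03, so the Psme2 value is uncertain. Psme4, a large single-chain activator, read 7.81, 7.20 and 8.16 with PBS and 8.21, 8.18 and 7.84 with G-CSF. PBS replicate 2 was the low array (0.35, SE 0.26, adjusted p = 0.954). Psme3, a nuclear activator, differed by 0.03. The median of the 4 activators was 0.19, and -0.04 without PBS replicate 1.

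**Figure D4:**
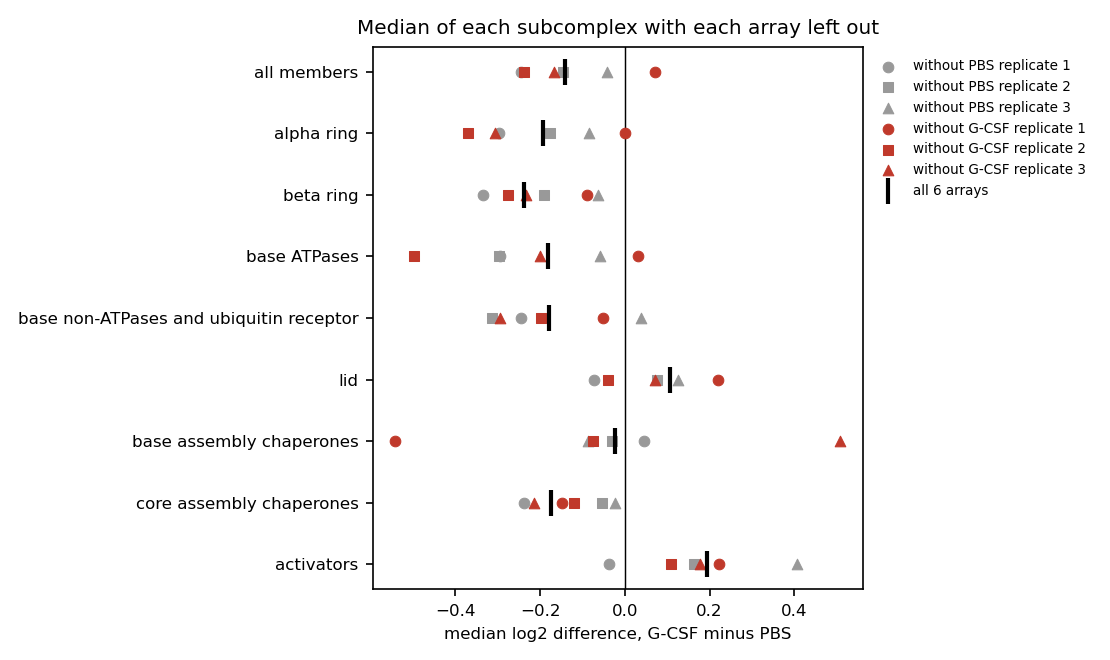
Median log2 difference (G-CSF minus PBS) over all members and over each subcomplex with all 6 arrays (black bars) and with each array left out (grey for PBS, red for G-CSF). Without G-CSF replicate 1 the median over all members moves from -0.14 to 0.07.

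Genes that work with the proteasome were read in the same way. Of 23 listed symbols of partners, older names included, 16 were measured and 0 passed after adjustment by limma, with 11 negative and 5 positive differences (median -0.12). Rad23b, a shuttle that carries ubiquitylated proteins to the proteasome, read 8.09, 8.18 and 8.22 with PBS and 8.46, 8.83 and 8.41 with G-CSF. The PBS values lay close together and under each G-CSF value (0.40, SE 0.17, unadjusted p = 0.0477, adjusted p = 0.822), and it was the 1 partner of 16 (6.25%) with an unadjusted p under 0.05 and the 1 without overlap. Among all genes 6.04% had such a p and 10.8% did not overlap, so the partners' counts were near or under the background. The proteasome-bound deubiquitinase Uchl5 differed by 0.47 (SE 0.30) and the proteasome phosphatase Ublcp1 by -0.50 (SE 0.31). Ublcp1 was dim, and its G-CSF mean of 5.10 lay under the filter limit of 5.15. Pomp, the maturation factor of the core, differed by -0.39 (SE 0.39), and Psmf1, known as a proteasome inhibitor, by -0.0025 (SE 0.23).

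Regulators of the subunit genes were measured in the same arrays. Of 9 listed genes 8 were measured, 0 passed by limma, 0 had an unadjusted p under 0.05, and the median was -0.0076. Nfe2l1 read 7.89, 8.02 and 7.85 with PBS and 7.86, 7.93 and 7.89 with G-CSF. This was a difference of -0.02 with a 95% interval of -0.36 to 0.31, among the narrower intervals here. Nfe2l2 differed by 0.01 (SE 0.26), Ngly1, an enzyme that processes Nfe2l1, by -0.36, and the small Maf genes Maff and Mafg by -0.42 and 0.13. Of 13 listed symbols for ubiquitin supply and for the unfoldase Vcp with its cofactors, 7 were measured, 0 passed by limma and 0 had an unadjusted p under 0.05 (median -0.10). The cofactors with the smallest p were Faf1 (-0.41), Nploc4 (0.24) and Ubxn7 (-0.30).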

How the data were processed

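The authors deposited intensity values of 35554 probesets for 6 arrays of KSL SLAM cells, made with RMA per the submitters' processing notes. They ran from 2.70 to 19069 on a linear scale, and log2 was taken first. Software version and the set of arrays that RMA was run on were not stated in the labels. RMA sets arrays to a like distribution, so a change shared by most genes would not be seen. Of the probesets, 21789 had 1 gene symbol, 1621 several and 12144 none in the platform annotation, and the first were used. The dimmest 25% by mean (limit 5.15) were left out, and a gene with several probesets was read from its brightest one on average, giving 14994 genes. The annotation's identifiers of all 44 members were in a RefSeq gene table (GRCm38.p6).

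Groups were compared with limma 3.58.1 in R 4.3.3 (lmFit and eBayes, two-sided, Benjamini-Hochberg over all genes, threshold 0.05). The fit was also run on simulated data with independent noise per gene. That setting lacks the deviations that members shared here, and no result is drawn from it. With 3 arrays per group, their number limits the precision. Subcomplexes are described by counts and medians, with no test over members. Members named with all 6 values were the 2 with the smallest p per subcomplex (1 where it had 3 or fewer), those at an unadjusted p under 0.05 and the largest difference each way. Of each list of other pathway genes, the 3 with the smallest p were named, and Nfe2l1, Nfe2l2, Pomp and Psmf1 regardless of their result. Members and lists were chosen with earlier results of these data known. Promoters were searched for 3 motifs in the 250 bases before the start. Alternatives changed the filter, normalization, variance model, array weights, probeset rule, replicate block and arrays used. Figures were drawn with matplotlib 3.10.9.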

Additional observations from a re-analysis of the deposited data

How the results depend on the processing

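The count of called members was 0 under every alternative tried, and the members' smallest adjusted p by limma was 0.323. Over all genes, 4 were called higher. The count was 12 after quantile normalization again, 2 with arrays centred on the median and 0 to 6 with each array left out. The cause was not tested. With each array left out, the median was -0.24 to 0.07 over members, -0.33 to -0.064 in the beta ring and -0.54 to 0.51 in the base assembly chaperones, and Psmd2 ran from -0.65 to 0.17. Under the other alternatives tried the members' median was -0.16 to -0.13. With the dimmest 50% of probesets left out, 43 members were measured. With the replicate number as a block, 0 members and 5 genes were called, and the members' median was -0.14. Deviations of same-numbered arrays correlated by 0.29, 0.02 and 0.19, and those of the other pairs by -0.28 to 0.10. G-CSF replicate 2 correlated better with PBS replicate 3 (0.10) than with PBS replicate 2 (0.02), and every other array correlated best with its own number. The main fit did not pair the arrays, and whether the numbers pair them was not tested.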
